A study of Mus musculus with 4 samples.

Results

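The endothelial identity genes are 34 mouse genes that mark the cells lining blood and lymphatic vessels, taken by exact gene symbol from a fixed list. All 34 were found among the 24391 genes counted in lung tumours, and all 34 passed the filter on low counts that left 16001 genes for testing. The list holds general endothelial genes, genes of lung capillaries, genes of veins and larger vessels, and genes of lymphatic vessels. In tumours labelled K-Ras Mll4-/-, 32 of the 34 had a negative fitted difference from K-Ras tumours, with a median log2 fold change of -0.67. None of the 34 passed the adjusted threshold of the main test with 2 samples in each group.

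Endothelial cells line every vessel and are held together by junctions built on VE-cadherin (Cdh5) and claudin-5 (Cldn5). They respond to vascular endothelial growth factor (VEGF) through the receptor tyrosine kinases Kdr, Flt1 and Flt4, and to angiopoietins through Tek. Their identity is set by transcription factors of the ETS family, such as Erg and Fli1, and of the SOX family, such as Sox17 and Sox18, while Prox1 specifies lymphatic endothelium. In the lung, the alveolar capillary bed holds general capillary cells, marked by Aplnr and Gpihbp1, and large thin cells specialised for gas exchange, marked by Car4 and Ednrb.

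The samples were mouse lung tumours of 2 genotypes, K-Ras (the K-RasLSL-G12D allele, in which a stop cassette keeps mutant K-Ras silent until Cre removes it) and K-Ras Mll4-/- (the same allele with Mll4fl/fl, a floxed Mll4). Both groups therefore carry mutant K-Ras, and no sample of normal lung was compared. Mll4, now named Kmt2d, encodes a histone methyltransferase that acts mainly at enhancers. The tumours of both groups were dissociated, red blood cells were lysed and cells bearing CD45, the pan-leukocyte antigen, were depleted with a commercial kit before RNA extraction, so vessels were measured as part of what remained. The labels give no age, no Cre source and no statement of whether replicates came from different mice, so p-values measure only the spread between these samples. The cell type in which Mll4 was deleted is likewise not given in the sources used here.

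Reads assigned to genes ranged from 26683033 to 36677987 per sample. Of the 34 endothelial genes, Prox1 rested on 72 to 208 reads per sample, and the next lowest value in any sample was 1241 reads, for Ednrb. Levels are given as CPM, a gene's reads relative to the gene-assigned reads of its sample, with library sizes adjusted by edgeR's TMM factors. Kmt2d was at 395 and 526 CPM in the K-Ras samples and 367 and 317 CPM in the K-Ras Mll4-/- samples, a log2 fold change that was not called (edgeR adjusted p = 0.302). Counts per gene cannot show whether floxed exons were lost, so the deletion is taken from the labels. Ptprc, the gene of CD45, was at 274 and 143 CPM in K-Ras and at 269 and 171 CPM in K-Ras Mll4-/-, so the groups overlapped.

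Summed over the 34 genes, the endothelial level was 16597 and 17182 CPM in the K-Ras samples and 11545 and 9209 CPM in the K-Ras Mll4-/- samples. The groups did not overlap, and the endothelial genes took 1.74% and 1.69% of the gene-assigned reads in the K-Ras samples against 1.14% and 0.903% in the K-Ras Mll4-/- samples. No test was made of these sums. In RNA from these bulk CD45-depleted cell suspensions, fewer endothelial cells in the tumour, fewer recovered in the preparation and less endothelial RNA per cell cannot be told apart.

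Gene by gene, 0 of the 34 passed the edgeR quasi-likelihood test after adjustment (adjusted p under 0.05), against 0.0375% of all genes tested (6 genes, all higher in K-Ras Mll4-/-). At an unadjusted p under 0.05, 21 of the 34 were lower and 0 were higher, beside 10.4% of all genes that were lower and 11.4% that were higher by the same rule. In 27 of the 34, both K-Ras Mll4-/- samples were below both K-Ras samples, beside 28.5% of all genes, and in 0 of the 34 were both above, beside 29.9% of all genes. The median log2 fold change over all genes was -0.01. A log2 fold change below -0.5 was found in 26 of the 34 and in 21.1% of all genes. DESeq2, run as an alternative, called 18 of the 34 and the edgeR likelihood ratio test 13, all of them lower, beside 4.98% and 4.54% of all genes called lower by those tests. K-Ras Mll4-/- replicate 2 had the lower value of its group for 33 of the 34 genes. Without it the median log2 fold change of the 34 was -0.53, beside -0.02 over all genes in that fit.

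**Figure D1:**
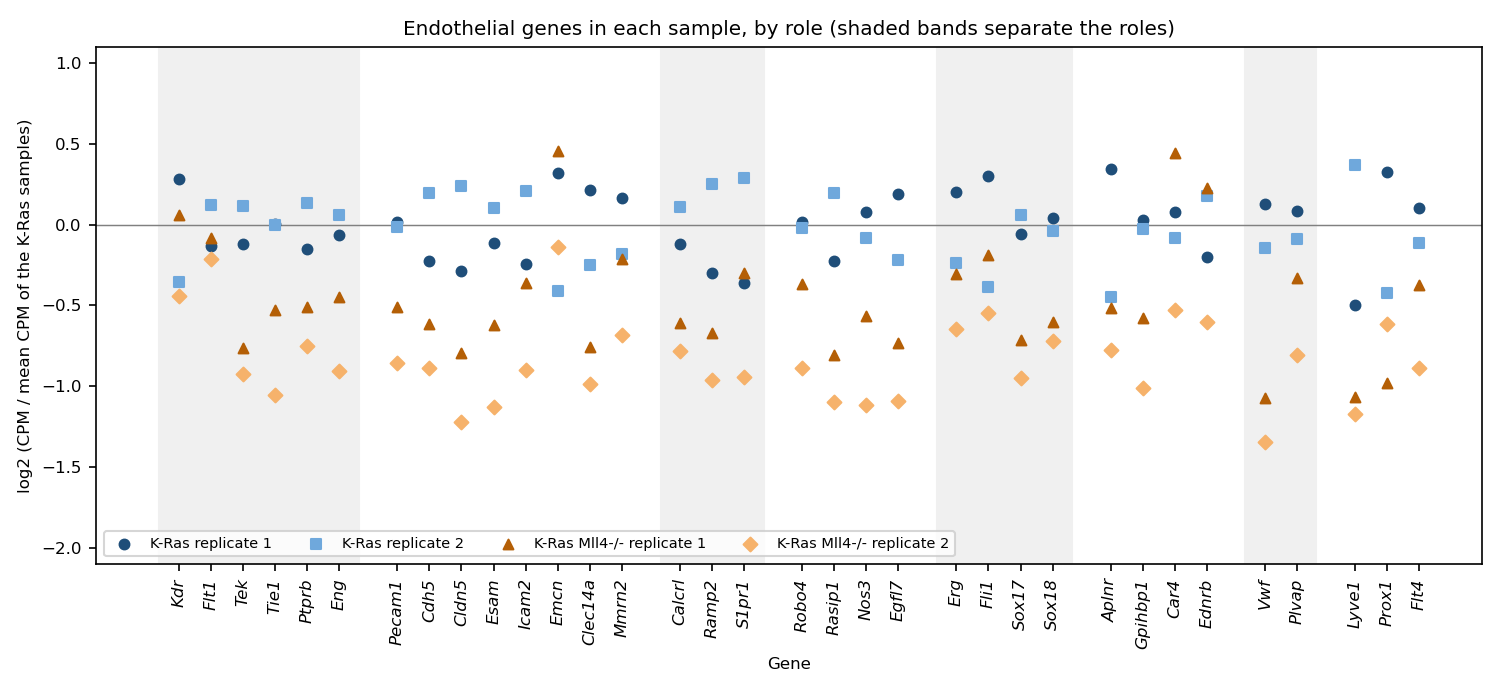
Level of each of the 34 endothelial genes in the 4 samples, as log2 of CPM over the mean CPM of the K-Ras samples, with genes on the horizontal axis in bands by role. Both K-Ras Mll4-/- samples lie below both K-Ras samples for 27 genes, and the samples of the groups interleave for Kdr, Flt1, Emcn, S1pr1, Fli1, Car4 and Ednrb.

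**Figure D2:**
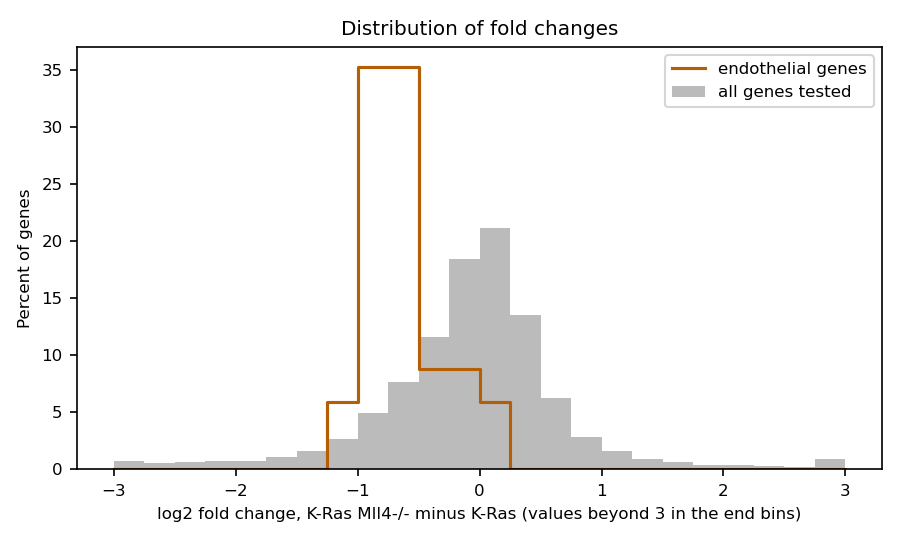
Percent of genes in each bin of log2 fold change (K-Ras Mll4-/- minus K-Ras, bins of 0.25, values beyond 3 in the end bins) for all 16001 genes tested (grey bars) and for the 34 endothelial genes (line). The endothelial genes lie mostly between -1.25 and -0.5, whereas the bins next to 0 hold the most genes overall.

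Levels were also compared between genes after division by the length of the longest GENCODE M21 transcript, as CPM per kilobase. The highest endothelial genes in K-Ras tumours on that scale were Egfl7, a secreted endothelial protein, at a mean of 439.9, the platelet and endothelial adhesion molecule Pecam1 at 391, the adrenomedullin receptor Calcrl at 377, Cdh5 at 297 and Vwf at 276. Egfl7 (501 and 379), Pecam1 (395 and 387) and Calcrl (346 and 407) overlapped between K-Ras samples, so their order is not resolved. Nor is that of Cdh5 (254 and 341) and Vwf (302 and 250). The lowest were Ednrb at 14.3 and Prox1 at 0.685 CPM per kilobase. In K-Ras Mll4-/- tumours the first 4 places were held by the same genes, while Vwf was in place 8 with 119.7.

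By an unadjusted p under 0.05, 10.4% of all genes were lower. Of 6 genes of vascular growth factor receptors and their partners, 4 (Tek, Tie1, Ptprb and Eng) were lower by that rule. Kdr and Flt1 were not, and none of the 6 was called. No test was made of a difference between these genes. Tek, the angiopoietin receptor, was at 435 and 512 CPM in the K-Ras samples and 279 and 249 CPM in the K-Ras Mll4-/- samples, at a log2 fold change of -0.84 ± 0.17 (SE) and an edgeR adjusted p of 0.153. Tie1, its orphan partner receptor, was at 441 and 439 against 305 and 212 CPM. Ptprb, the endothelial phosphatase that restrains Tek signalling, was at 2024 and 2466 against 1573 and 1331 CPM. For each of these 3 genes, the groups did not overlap. Eng, a TGF-beta co-receptor, was at 376 and 410.3 CPM in K-Ras and 288 and 209.9 CPM in K-Ras Mll4-/-, also without overlap.

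Kdr, the main signalling receptor for VEGF, was at 597 and 383 CPM in the K-Ras samples and 510.3 and 361 CPM in the K-Ras Mll4-/- samples. Its log2 fold change of -0.17 ± 0.31 (SE), with an edgeR adjusted p of 0.774, was smaller than the spread between replicates, and its sign reversed to 0.19 without K-Ras replicate 1. Flt1, which binds VEGF with high affinity and largely acts as a decoy, was at 653 and 781 against 678 and 618 CPM, at a log2 fold change of -0.15 ± 0.19 (SE) and an edgeR adjusted p of 0.674. Both receptors therefore had samples of the groups interleaved, and the sign of Flt1 reversed with offsets for GC content and transcript length.

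Of 8 genes of cell junctions and the cell surface, 5 were lower at an unadjusted p under 0.05, beside 10.4% of all genes. In 7, both K-Ras Mll4-/- samples were below both K-Ras samples, beside 28.5% of all genes, and none of the 8 was called. Pecam1 was at 1359.8 and 1332 CPM in K-Ras and 944 and 744 CPM in K-Ras Mll4-/-, at a log2 fold change of -0.67 ± 0.21 (SE) and an edgeR adjusted p of 0.190. Cdh5 was at 1016 and 1360.5 CPM against 777 and 642 CPM. Cldn5 was at 232 and 332 CPM against 163 and 121 CPM, at a log2 fold change of -0.99 ± 0.26 (SE) and an edgeR adjusted p of 0.177. The 3 genes showed no overlap between the groups, and the K-Ras samples were farther apart in Cdh5 and Cldn5 than in Pecam1. Esam, an adhesion molecule of tight junctions, was at 222 and 258 against 156 and 109 CPM. Clec14a, a lectin-like receptor of vessel sprouts, was at 544 and 395 against 278 and 237 CPM. The log2 fold changes of Esam and Clec14a were -0.86 and -0.87, close to that of Tek.

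In Icam2 and Mmrn2 the nearest samples of the 2 groups were close together. Icam2, an adhesion molecule that leukocytes bind, was at 92.2 and 126 CPM in K-Ras and 85.1 and 58.6 CPM in K-Ras Mll4-/-. Mmrn2, a matrix protein that binds Clec14a, was at 182 and 143 against 140.5 and 101 CPM. Neither overlapped between groups, but in each the nearest samples of the 2 groups differed by less than the samples within a group. That limit also held, for at least 1 of the groups, in Cdh5, Cldn5 and Clec14a. Outside the junction and surface genes it held in Ramp2, Robo4, Rasip1, Egfl7, Erg, Aplnr, Plvap, Lyve1, Prox1 and Flt4. Emcn, an endothelial sialomucin of capillaries and veins, was the 1 gene of these with overlapping groups, at 209.8 and 127 CPM in K-Ras and 231 and 153 CPM in K-Ras Mll4-/-, at a log2 fold change of 0.19 ± 0.34 (SE) and an edgeR adjusted p of 0.770. Its sign reversed to -0.14 without K-Ras replicate 2 and to -0.14 without K-Ras Mll4-/- replicate 1.

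The adrenomedullin receptor is formed by Calcrl with the accessory protein Ramp2. Both genes were lower at an unadjusted p under 0.05 (10.4% of all genes), and neither was called. Calcrl was at 1691 and 1988 CPM in K-Ras and 1204 and 1067 CPM in K-Ras Mll4-/-, at a log2 fold change of -0.70 ± 0.21 (SE) and an edgeR adjusted p of 0.186. Ramp2 was at 153 and 225 against 119 and 97.3 CPM, with a log2 fold change of -0.81. The groups did not overlap in either gene, and 28.5% of all genes were lower in that way. S1pr1, the sphingosine-1-phosphate receptor that stabilises junctions, was at 510.1 and 798 CPM in K-Ras and 531 and 340.4 CPM in K-Ras Mll4-/-, so the groups overlapped.

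In the 4 genes grouped as guidance, flow and secreted genes, both K-Ras Mll4-/- samples were below both K-Ras samples (28.5% of all genes). All 4 were lower at an unadjusted p under 0.05 (10.4% of all genes) and none was called. Rasip1, a Ras-interacting protein needed for vessel lumen formation, was at 222 and 297 CPM in K-Ras and 148 and 121 CPM in K-Ras Mll4-/-, at a log2 fold change of -0.95 ± 0.21 (SE) and an edgeR adjusted p of 0.157. Egfl7 was at 935 and 706 against 493 and 385 CPM, and its log2 fold change was -0.90. With GC and length offsets the log2 fold change of Rasip1 was -0.57, near the list's median of -0.54 in that fit, and that of Egfl7 was -0.75. Nos3, the endothelial nitric oxide synthase, was at 143 and 128 against 91.5 and 62.4 CPM. Robo4, the endothelial member of the roundabout receptors, was at 164 and 160.2 against 126 and 87.6 CPM.

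Of the 4 transcription factors, both SOX genes were lower at an unadjusted p under 0.05 (10.4% of all genes) and neither ETS gene was. Sox17, a factor of arterial endothelium, was at 136 and 148 CPM in K-Ras and 86.4 and 73.3 CPM in K-Ras Mll4-/-, at a log2 fold change of -0.83 ± 0.14 (SE) and an edgeR adjusted p of 0.147. Sox18 was at 87.6 and 83.0 against 56.1 and 51.8 CPM, at a log2 fold change of -0.66 ± 0.12 (SE) and an edgeR adjusted p of 0.147. In both, replicates lay close together and the gap between groups was larger than the gap within them. Erg was at 166 and 123 CPM in K-Ras and 117 and 92.5 CPM in K-Ras Mll4-/-, and Fli1 at 179 and 111 against 128 and 99.5 CPM. The log2 fold changes of Erg and Fli1 were -0.47 (SE 0.22) and -0.35 (SE 0.28). The groups overlapped in Fli1, and in Erg the nearest samples of the 2 groups differed by less than the samples within a group. No test of the difference between the SOX and ETS genes was made.

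Because Erg and Fli1 bind DNA with a GGAA core, promoters of the endothelial genes were searched for the ETS sequences AGGAAG and CGGAAG on both strands, in the 250 bases before each RefSeq start (GRCm38.p6). RefSeq promoter entries were matched for 17 of the 34 genes, with 22 starts in all. AGGAAG was present in 10 of the 22 (45.5%), against 29.5% of 32851 promoters of all genes, and CGGAAG in 2 (9.09%) against 13.6%. The SOX sequence ACAATG was present in 2 (9.09%) against 10.7%. A match describes these letters only and is not evidence of binding. Shown are 3 genes that were lower without overlap, Tie1 (chr4:118489850-118490099, minus strand), Robo4 (chr9:37401722-37401971, plus strand) and Rasip1 (chr7:45627287-45627536, plus strand), and Emcn (chr3:137340828-137341077, plus strand), whose fitted difference was positive. Each is written 5′ to 3′ on the strand of the gene and ends at the base before the start, with ETS matches in capitals (a minus-strand match reads CTTCCT).
Tie1: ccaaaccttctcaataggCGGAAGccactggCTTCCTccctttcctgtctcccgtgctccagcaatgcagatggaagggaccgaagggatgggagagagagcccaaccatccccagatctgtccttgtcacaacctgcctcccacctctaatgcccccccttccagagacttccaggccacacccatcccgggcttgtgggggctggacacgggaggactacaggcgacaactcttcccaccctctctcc
Robo4: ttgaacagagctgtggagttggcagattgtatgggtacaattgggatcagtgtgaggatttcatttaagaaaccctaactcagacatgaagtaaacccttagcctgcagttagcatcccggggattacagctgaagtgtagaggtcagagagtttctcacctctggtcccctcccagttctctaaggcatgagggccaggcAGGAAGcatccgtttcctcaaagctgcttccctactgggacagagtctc
Rasip1: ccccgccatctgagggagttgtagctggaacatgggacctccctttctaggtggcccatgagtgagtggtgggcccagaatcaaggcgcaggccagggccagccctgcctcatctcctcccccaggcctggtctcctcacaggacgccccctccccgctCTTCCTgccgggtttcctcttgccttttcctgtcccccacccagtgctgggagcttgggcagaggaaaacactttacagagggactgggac
Emcn: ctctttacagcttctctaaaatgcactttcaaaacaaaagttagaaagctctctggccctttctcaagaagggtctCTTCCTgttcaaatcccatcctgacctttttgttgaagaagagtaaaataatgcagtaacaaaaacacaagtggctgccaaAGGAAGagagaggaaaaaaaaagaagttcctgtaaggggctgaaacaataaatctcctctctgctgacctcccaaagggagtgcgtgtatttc
Every gene shown was among those with an ETS match, so the matches in them followed from the choice of genes to show. Tie1 and Emcn each carry 2.

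Of the 4 capillary genes, 1 (Gpihbp1) was lower at an unadjusted p under 0.05, beside 10.4% of all genes, and none of the 4 was called. Gpihbp1, which anchors lipoprotein lipase on capillary walls, was at 274 and 264 CPM in K-Ras and 180.4 and 133 CPM in K-Ras Mll4-/-, at a log2 fold change of -0.78 ± 0.19 (SE) and an edgeR adjusted p of 0.168. Aplnr, the apelin receptor, was at 108 and 62.3 against 59.4 and 49.6 CPM. The groups did not overlap in these 2 genes of general capillary cells, although K-Ras replicate 2 was close to the K-Ras Mll4-/- samples in Aplnr, whose log2 fold change of -0.64 became -0.19 without K-Ras replicate 1. Car4, a carbonic anhydrase on the luminal surface of gas-exchange capillaries, was at 86.1 and 77.1 CPM in K-Ras and 111 and 56.6 CPM in K-Ras Mll4-/-, at a log2 fold change of 0.036 ± 0.34 (SE) and an edgeR adjusted p of 0.960. Ednrb, an endothelin receptor, was at 51.0 and 66.1 against 68.6 and 38.5 CPM, at a log2 fold change of -0.13 ± 0.32 (SE) and an edgeR adjusted p of 0.839. In both, the K-Ras samples lay between the K-Ras Mll4-/- samples, and the sign of Car4 reversed under 7 of 15 alternatives, including a change of scaling to total counts (-0.018) or upper quartiles (-0.026). The sign of Ednrb reversed under 2, without K-Ras Mll4-/- replicate 2 (0.22) and without K-Ras replicate 2 (0.054).

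Vwf, the clotting factor stored in granules of endothelium and most abundant in veins and larger vessels, had the most negative log2 fold change of the 34 in the main test. Lyve1 was more negative with GC and length offsets and without K-Ras replicate 1, and Cldn5 and Rasip1 also were in the latter. It was at 2669.6 and 2206 CPM in K-Ras and 1158 and 958 CPM in K-Ras Mll4-/-, at a log2 fold change of -1.20 ± 0.23 (SE) and an edgeR adjusted p of 0.147, or 56.6% lower. The log2 fold change of Vwf lay between -1.35 and -1.06 when each sample was left out in turn and was -0.91 with GC and length offsets. Megakaryocytes and platelets also make Vwf. Of 9 of their markers, all 9 had negative fitted differences (51.2% of all genes). Only Itga2b was lower at an unadjusted p under 0.05 (10.4% of all genes), and none of the 9 was called. The largest were Itga2b (-0.80), Treml1 (-0.79) and Gp6 (-0.77), receptors of the platelet lineage. Their summed level was 87.5 and 51.2 CPM in the K-Ras samples and 37.4 and 54.4 CPM in the K-Ras Mll4-/- samples, so the groups overlapped. No marker in that list was at 0, and its part in the Vwf result was not tested. Plvap, a protein of the diaphragms of fenestrated and venous endothelium, was at 369.6 and 328 CPM against 277 and 199.7 CPM, with a log2 fold change of -0.55.

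In the 3 lymphatic genes, both K-Ras Mll4-/- samples were below both K-Ras samples (28.5% of all genes). Of the 3, 2 were lower at an unadjusted p under 0.05 (10.4% of all genes) and none was called. Lyve1, a hyaluronan receptor of lymphatic vessels that some tissue macrophages also carry, was at 122 and 223 CPM in K-Ras and 82.5 and 76.8 CPM in K-Ras Mll4-/-, at a log2 fold change of -1.12 ± 0.32 (SE) and an edgeR adjusted p of 0.182. It was the 1 endothelial gene called in the fit without K-Ras replicate 1, at an edgeR adjusted p of 0.0349, where 2.54% of all genes were called lower, while without K-Ras replicate 2 its log2 fold change was -0.63. Flt4, the receptor for VEGF-C, was at 139 and 119 against 99.8 and 69.8 CPM. Prox1 was at 6.80 and 4.04 CPM in K-Ras and 2.74 and 3.54 CPM in K-Ras Mll4-/-, resting on 208, 146, 72 and 114 reads. The K-Ras samples differed more from each other in Lyve1 and Prox1 than the K-Ras Mll4-/- samples did. Among macrophage markers, Csf1r was at 53.6 and 28.4 against 50.5 and 23.4 CPM and Cd68 at 237 and 48.1 against 188 and 83.6 CPM. The groups overlapped in Csf1r and Cd68. Itgam, a myeloid integrin, was lower without overlap, at 63.3 and 26.9 against 17.3 and 13.4 CPM. The 16 leukocyte markers summed to 5245 and 4600.4 CPM in K-Ras and 5130.3 and 3310.4 CPM in K-Ras Mll4-/-, most of it Lyz2, which alveolar type 2 cells also express, and their part in the Lyve1 result was not tested.

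**Figure D3:**
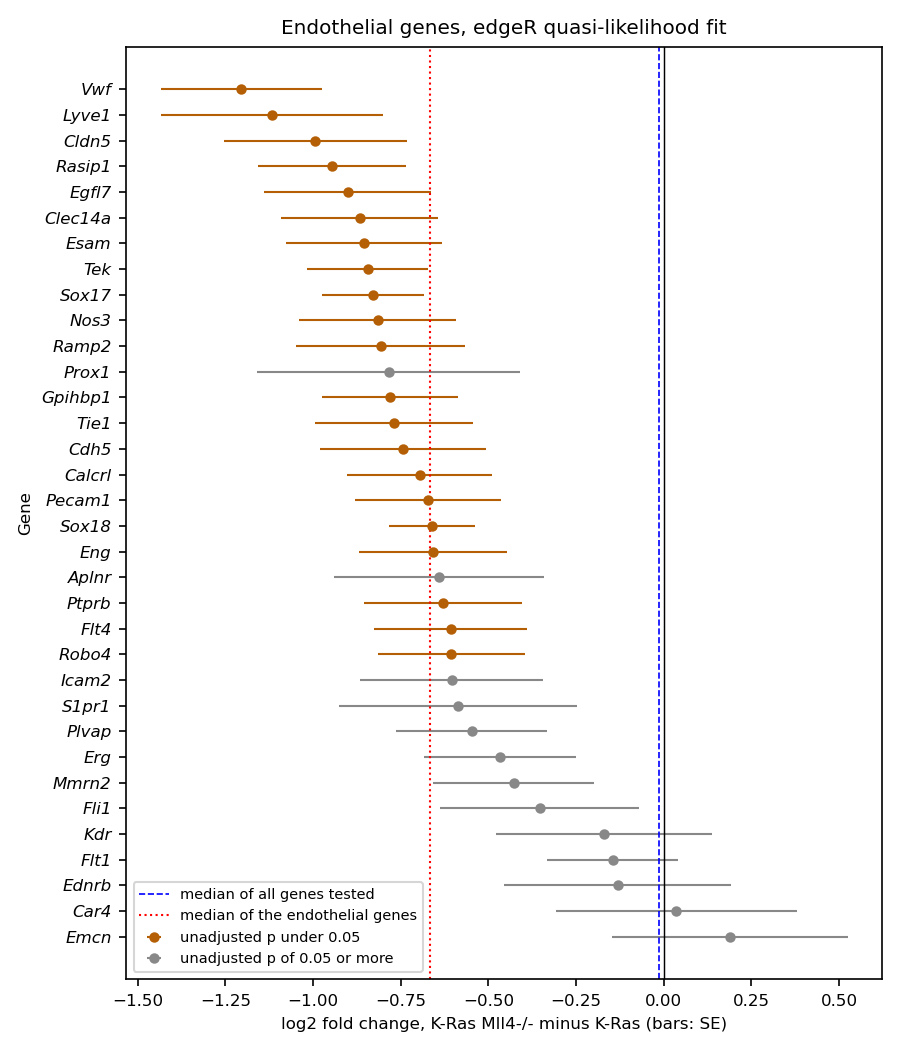
Fitted log2 fold change (K-Ras Mll4-/- minus K-Ras) with its SE for each endothelial gene, ordered from the most negative at the top, in orange where the unadjusted p is under 0.05, with dotted and dashed lines at the medians of the endothelial genes and of all genes. Vwf and Lyve1 lie beyond -1, most genes lie near the list's median of -0.67, and Kdr, Flt1, Ednrb, Car4 and Emcn lie within 0.2 of 0.

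To compare endothelial genes with each other inside each sample, every gene was divided by Pecam1, a ratio that no scaling factor changes. Of 33 genes, 19 had overlapping ratios in the groups, 8 had higher ratios in both K-Ras Mll4-/- samples and 6 had lower ones. Over all other genes tested, the ratio to Pecam1 was higher in both K-Ras Mll4-/- samples for 69.1% and lower for 4.99%, so a higher ratio is common to most genes. The Vwf ratio was 1.96 and 1.66 in the K-Ras samples and 1.23 and 1.29 in the K-Ras Mll4-/- samples. The Emcn ratio was 0.154 and 0.0953 against 0.245 and 0.205, and the Car4 ratio 0.0633 and 0.0579 against 0.117 and 0.0761. The Kdr ratio was 0.439 and 0.288 against 0.541 and 0.486, and the Flt1 ratio 0.480 and 0.586 against 0.719 and 0.831. For Vwf both K-Ras Mll4-/- ratios lay below the K-Ras ratios, and for Emcn, Car4, Kdr and Flt1 both lay above. The other 4 genes with higher ratios were Ednrb, Mmrn2, Erg and Fli1, and the other 5 with lower ratios were Tie1, Rasip1, Egfl7, Sox17 and Gpihbp1. No test was made of these ratios.

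**Figure D4:**
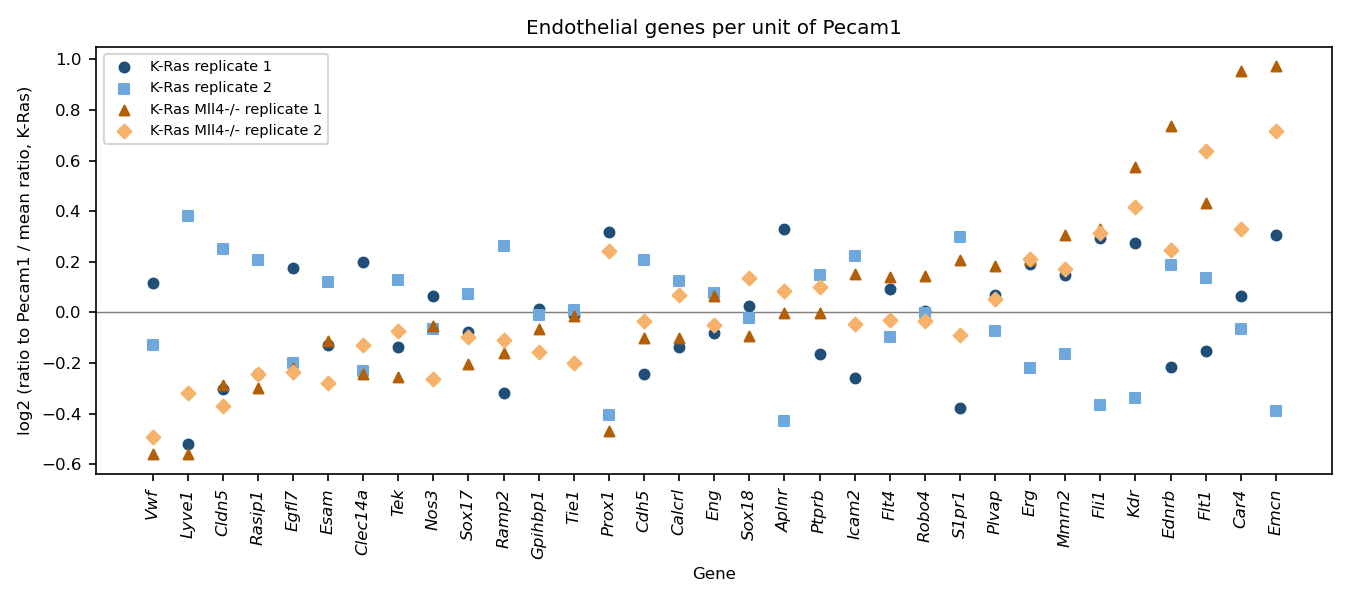
Ratio of each endothelial gene to Pecam1 in the 4 samples, as log2 over the mean ratio of the K-Ras samples, ordered by the ratio of group means. Vwf stands at the low end and Ednrb, Flt1, Car4 and Emcn at the high end.

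A list of 36 further endothelial genes, none of them among the 34, was measured in the same samples. Of 35 tested, 35 had negative fitted differences, 24 were lower at an unadjusted p under 0.05, 30 had both K-Ras Mll4-/- samples below both K-Ras samples, and none was called. The same rules held for 51.2%, 10.4% and 28.5% of all genes. Their median log2 fold change was -0.73, and Ccl21a had 0 reads in all samples. Genes of arterial endothelium included Hey1, a Notch target, at 92.2 and 93.3 CPM against 51.7 and 43.3 CPM, and Gja4, a gap junction protein, at 96.9 and 74.9 CPM against 43.4 and 44.2 CPM. Their log2 fold changes were both -0.97, with SEs of 0.14 and 0.17. Gja5, Dll4 and Bmx, which arterial endothelium also expresses, differed less, at log2 fold changes of -0.54, -0.47 and -0.25. In Bmx the groups overlapped.

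The largest differences in that list were in genes of veins and inflamed vessels and rested on K-Ras replicate 1. Ackr1, a chemokine-binding receptor of venules, was at 17.3 and 2.44 CPM in K-Ras and 1.03 and 0.838 CPM in K-Ras Mll4-/-. Selp, the P-selectin gene, which platelets also carry, was at 39.1 and 5.87 against 3.39 and 3.10 CPM. K-Ras replicate 1 was several times higher than K-Ras replicate 2 in both genes. Hpgd, an enzyme that degrades prostaglandins and is not restricted to endothelium, followed the other K-Ras sample, at 124 and 346 CPM against 74.4 and 61.5 CPM. The log2 fold changes were -3.40 (SE 1.04), -2.79 (SE 0.95) and -1.79 (SE 0.52), and none was called (edgeR adjusted p = 0.191, 0.211 and 0.186).

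Ligands of the endothelial receptors were split in direction, whereas the endothelial genes were mostly lower. Of 18 ligands and related genes, 15 were tested, 7 with positive and 8 with negative differences. At an unadjusted p under 0.05, 3 were lower and 3 higher, beside 10.4% and 11.4% of all genes. Vegfa was at 421 and 514 CPM in K-Ras and 523 and 692 CPM in K-Ras Mll4-/-, at a log2 fold change of 0.38 ± 0.22 (SE) and an edgeR adjusted p of 0.374. Vegfc, the Flt4 ligand, averaged 38.2 ± 3.91 CPM in K-Ras against 21.4 ± 5.66 CPM in K-Ras Mll4-/- (mean ± SD, n = 2 each), without overlap. Angpt1, the activating ligand of Tek that mural cells make, was at 20.6 and 15.3 against 11.7 and 11.4 CPM, while Angpt2, made by endothelium itself, was at 31.0 and 26.1 against 35.8 and 29.1 CPM. Apln, the Aplnr ligand and a tip-cell gene, was at 19.8 and 30.2 against 34.6 and 43.7 CPM. Vegfa and Apln were thus higher and Vegfc and Angpt1 lower in both K-Ras Mll4-/- samples, and Angpt2 overlapped. Of the 15 tested, 5 were higher and 6 lower without overlap, beside 29.9% and 28.5% of all genes.

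The ligands with the largest differences were Edn3, Slit2 and Edn1. Edn3, an endothelin that binds Ednrb, was at 2.49 and 2.16 CPM in K-Ras and 4.95 and 15.5 CPM in K-Ras Mll4-/-. Slit2, a secreted guidance ligand, was at 30.2 and 32.6 against 60.6 and 106 CPM, and Edn1, the endothelin of endothelium and airway, at 55.6 and 139 against 49.5 and 42.7 CPM. The log2 fold changes were 2.14 (SE 0.61), 1.41 (SE 0.30) and -1.08 (SE 0.46), and none was called (edgeR adjusted p = 0.184, 0.156 and 0.263).

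Markers of other cell types moved with the groups to different degrees. The 14 epithelial markers split into 7 positive and 7 negative differences. Among the positive were Epcam at 101 and 126 CPM in K-Ras and 182 and 233 CPM in K-Ras Mll4-/-, Krt18 at 177 and 277 against 1065 and 834 CPM, and Krt19 at 78.4 and 187 against 369.9 and 609 CPM. Ager, a marker of alveolar type 1 cells, was at 339.6 and 448 against 211 and 157 CPM, and Scgb1a1, a club cell gene, at 576 and 2995 against 566 and 439 CPM. At an unadjusted p under 0.05, 5 of the 14 were higher and 2 lower (Ager and Foxj1), beside 11.4% and 10.4% of all genes, and none was called. Foxj1, the ciliated cell factor with the largest difference, was at 27.8 and 222 against 12.8 and 16.5 CPM. The ratio of Pecam1 to Epcam was 13.4 and 10.6 in the K-Ras samples and 5.18 and 3.19 in the K-Ras Mll4-/- samples, and that of Pecam1 to Ptprc 4.95 and 9.32 against 3.51 and 4.36. The ratio of Pecam1 to Pdgfra went the other way, at 6.94 and 8.69 against 12.1 and 10.0, and that to Pdgfrb, a mural cell receptor, overlapped. Each ratio rests on 1 marker and need not hold for others of its list. Epcam was 1 of the 7 positive epithelial markers. Pdgfra, at a log2 fold change of -1.20, was near the low end of the fibroblast markers (-1.21 to 0.19). The part of epithelial content in the endothelial result was not tested.

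Of 10 fibroblast markers, 9 had negative differences, 4 of them at an unadjusted p under 0.05, beside 51.2% and 10.4% of all genes. The summed level of the 10 was 4028 and 2143 CPM in K-Ras and 1756 and 1784 CPM in K-Ras Mll4-/-. Pdgfra, a receptor of fibroblasts, was at 196 and 153 against 77.7 and 74.1 CPM, Col1a2 at 627 and 243 against 180.1 and 195 CPM, and Col1a1 at 491 and 180.1 against 147 and 159 CPM. Both collagen genes were highest in K-Ras replicate 1. Itgam, a myeloid integrin, was at 63.3 and 26.9 against 17.3 and 13.4 CPM. Of 14 pericyte and smooth muscle markers, 9 had negative and 5 positive differences, with a median log2 fold change of -0.15. In 5 both K-Ras Mll4-/- samples were below both K-Ras samples, and in 1 (Cspg4) both were above, beside 28.5% and 29.9% of all genes. At an unadjusted p under 0.05, 1 of 14 (Des) was lower, beside 10.4% of all genes. Des, the desmin gene, was at 15.3 and 15.8 against 10.7 and 7.69 CPM. Kcnj8, a pericyte potassium channel, was at 13.0 and 6.28 against 5.41 and 5.09 CPM, and Myh11, the smooth muscle myosin, at 21.6 and 45.7 against 25.6 and 18.5 CPM. Leukocyte markers had a median log2 fold change of -0.02. At an unadjusted p under 0.05, 2 of 16 were higher (Cd8a and Nkg7) and 1 lower (Itgam), beside 11.4% and 10.4% of all genes. S100a8 and S100a9, neutrophil genes, were at 69.2 and 79.2 CPM in K-Ras replicate 1 and at 15.5 to 23.3 CPM in the other samples. No marker in the epithelial, fibroblast, mural or leukocyte lists was at 0 in all samples, and their part in the endothelial result was not tested.

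**Figure D5:**
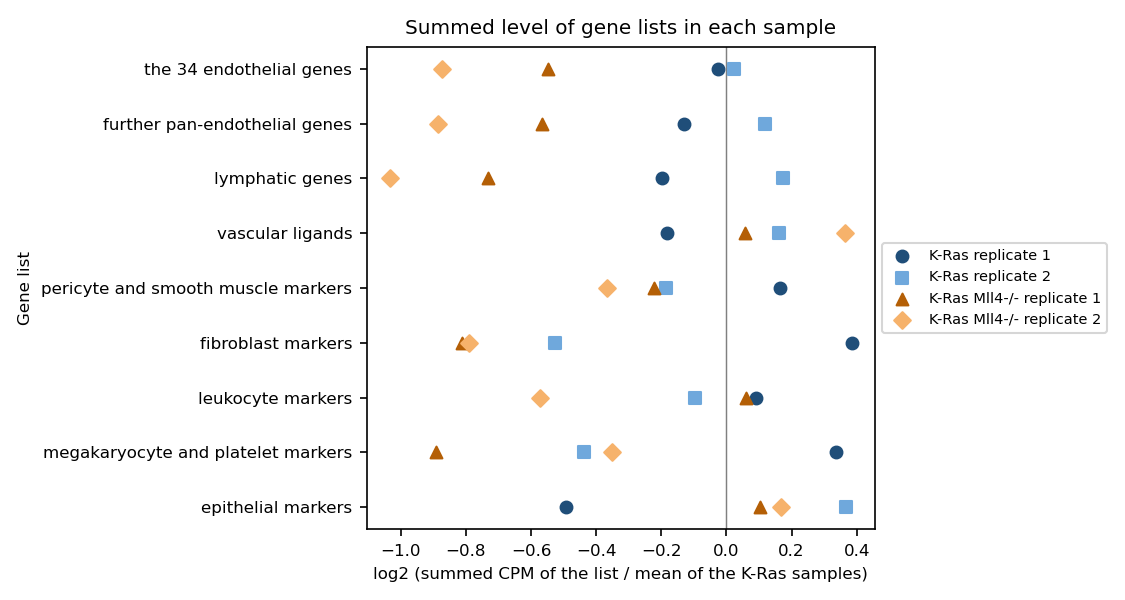
Summed CPM of each gene list in the 4 samples, as log2 over the mean of the K-Ras samples. The 34 endothelial genes, the further endothelial genes, the lymphatic genes, the fibroblast markers and the pericyte and smooth muscle markers are lower in both K-Ras Mll4-/- samples than in both K-Ras samples, and the ligand, leukocyte, platelet and epithelial lists overlap between the groups.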

How the data were processed

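RNA from 4 mouse lung tumour samples was sequenced, 2 per group, with groups and replicate numbers taken from the sample titles. The authors deposited unnormalized read counts, 1 value per gene symbol, made with CASAVA 1.4, STAR and HTSeq on build mm9 per the submitters' processing notes. The annotation and strand setting are not given in the sources used here, so antisense overlap could not be separated. Because the tables used for names, lengths and promoters are on GRCm38, positions are given only for the promoter windows, on that build. HTSeq's 5 tally lines, which name no gene, were left out of all tests. The tally of alignments that were not unique was 31.5% to 36.7% of the file totals, and these were not assigned to genes.

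Counts were fitted with edgeR 4.0.16 (R 4.3.3; default filterByExpr, TMM, robust quasi-likelihood test, no covariates), with Benjamini-Hochberg adjustment over 16001 genes, and a gene was called at an adjusted p under 0.05. SEs are the log2 fold change over the square root of F. Depth makes 3 reads equal to 0.0830 to 0.114 CPM on the TMM scale, and this floor covers counting error only. Alternatives used other scalings and filters, DESeq2 1.42.0, limma-voom (limma 3.58.1), edgeR's likelihood ratio test, a replicate block, and leaving out each sample. GC and length offsets (mgcv 1.9.3) were added after seeing the data. The gene list, the other lists and the tests were chosen with earlier results of these data known. All 34 endothelial genes were described, with the 3 largest absolute log2 fold changes of each other list and Kmt2d, Ptprc, Vegfa, Angpt1, Angpt2 and Apln. 1 gene that this rule names is not reported here. Further gene names were chosen after their values were seen.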

Additional observations from a re-analysis of the deposited data

How the results depend on the processing

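The median log2 fold change of the 34 endothelial genes stayed negative under all 15 alternatives, between -0.88 and -0.53, and moved by less than the spread between replicates. Against 0 endothelial genes called, DESeq2 called 18, the edgeR likelihood ratio test 13, and fits leaving out 1 sample between 0 and 1 (Lyve1, without K-Ras replicate 1). The count at an unadjusted p under 0.05 was 21 with the main test and with limma-voom, beside 10.4% and 8.67% of all genes lower by that rule. With GC and length offsets it was 14, beside 7.39% of all genes. When samples were left out, it ranged from 2 (without K-Ras Mll4-/- replicate 2) to 20. The share of all genes lower by that rule also moved between those fits and was lowest without K-Ras Mll4-/- replicate 2. That range therefore cannot be read as a property of the endothelial genes alone. Over all genes, against 6 called, there were 44 with no count filter, 1601 with DESeq2, 1503 with the likelihood ratio test, 0 with limma-voom, and between 0 and 528 when samples were left out.

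The replicate block gave 217 called genes, and 187 with GC and length offsets, but 0 endothelial genes in either. Same-numbered samples correlated at 0.24 in their deviations from the group means over all genes tested and at -0.05 over the endothelial genes, and the labels do not say what they share. Signs reversed for Car4 with total counts (-0.018), upper-quartile scaling (-0.026), limma-voom (-0.042), the replicate block (-0.041) and the block with offsets (-0.032). Flt1 reversed with the offsets (0.041) and with the block and the offsets (0.043). When samples were left out, log2 fold changes ranged from -0.52 to 0.43 for Car4, -0.14 to 0.60 for Emcn, -0.47 to 0.19 for Kdr, -0.60 to 0.22 for Ednrb and -0.67 to 0.036 for Fli1. The cause of these differences was not tested. The group left with 1 sample in such a fit is assumed to vary like the other.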

Other observations

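Mesothelial and red blood cell genes were outside the comparisons above. Msln, the mesothelin gene, was at 13.8 and 17.0 CPM in the K-Ras samples and 120.3 and 221 CPM in the K-Ras Mll4-/- samples, while Upk1b was at 6.93 and 4.32 against 2.74 and 2.20 CPM, and Lrrn4 was below 1 CPM in all 4. Upk3b, Wt1 and Nkain4 had too few reads to be tested. Of the red blood cell genes, Slc4a1 was at 2.55 and 0.387 against 1.56 and 4.06 CPM and Tfrc, which other dividing cells also carry, at 67.5 and 73.6 against 97.5 and 96.9 CPM.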
